A study of Rattus norvegicus with 12 samples.

Results

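The S100 calcium-binding proteins are described here in cultured rat retinal ganglion cells exposed to endothelins. The 7 genes are S100a1, S100a4, S100a6, S100a10, S100a11, S100a13 and S100b, of 14217 genes named on the arrays, and each was measured by 1 of the 31042 probe sets in the deposited table. They were selected by their annotated symbol as members of the S100 family, and the family was chosen by the measured values of these arrays, the higher signals of S100a6 and S100a11 with endothelin, so their differences from untreated cells are a description: no p-value is given for them, and calls are counted only beside the share of all probe sets called. Retinal ganglion cells send the axons of the optic nerve. They were taken from Sprague-Dawley pups on postnatal days 4 to 6 by panning on an antibody to Thy-1.1 and grown for 7 days without serum, supported by forskolin and by the ciliary and brain-derived neurotrophic factors. All cultures then spent a night without the neurotrophic factors. The groups were 100 nM endothelin-1 (ET-1), 100 nM endothelin-2 (ET-2) and 100 nM endothelin-3 (ET-3), each for 24 h, and untreated cells, which the labels' descriptions call vehicle-treated. Each of the 4 groups had 3 arrays (Affymetrix Rat Genome 230 2.0) labelled biological replicates 1 to 3, and the labels do not say what a number marks. The p-values measure the spread left between these arrays after differences between replicate numbers are removed.

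S100 proteins are small EF-hand proteins of vertebrates that work mostly as dimers. Calcium binding opens a hydrophobic face through which they hold partner proteins, among them annexins, tropomyosins and non-muscle myosin, and some are also secreted and bind receptors such as Ager (RAGE). In the retina and brain S100b is best known from astrocytes and Müller glia, while S100a10 (p11) is a member that no longer binds calcium and pairs with annexin A2. Endothelins are vasoactive peptides that act through the endothelin A and B receptors.

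The promoters of the 3 genes on which the results turn are shown so that the sequences before their starts can be set beside each other. RefSeq (build GRCr8) held promoters for 5 of the 7 genes; S100a1 and S100a10 were not matched. Each sequence is the 250 bases before the annotated start, on the plus strand of chromosome 2, and capitals mark the GC boxes (GGGCGG) of S100a6 and S100a11 and the TATA motif (TATAAA) of S100a4. The windows are chr2:178398287-178398536 for S100a6, chr2:181874882-181875131 for S100a11 and chr2:178388279-178388528 for S100a4.
S100a6: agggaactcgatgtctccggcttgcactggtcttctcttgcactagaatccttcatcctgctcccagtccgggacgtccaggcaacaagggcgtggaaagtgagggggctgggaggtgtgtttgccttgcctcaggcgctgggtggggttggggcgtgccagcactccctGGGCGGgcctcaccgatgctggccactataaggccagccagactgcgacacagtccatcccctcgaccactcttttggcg
S100a11: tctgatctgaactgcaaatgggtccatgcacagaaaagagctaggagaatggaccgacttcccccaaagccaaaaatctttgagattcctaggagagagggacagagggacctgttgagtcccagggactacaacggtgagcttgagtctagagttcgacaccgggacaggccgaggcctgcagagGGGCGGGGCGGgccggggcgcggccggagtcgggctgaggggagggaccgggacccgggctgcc
S100a4: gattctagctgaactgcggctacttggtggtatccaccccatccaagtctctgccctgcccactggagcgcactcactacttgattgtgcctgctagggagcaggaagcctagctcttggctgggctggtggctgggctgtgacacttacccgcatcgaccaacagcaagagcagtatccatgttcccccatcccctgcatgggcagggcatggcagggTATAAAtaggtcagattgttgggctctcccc

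The GC box of S100a6 lay 80 bases before the start, S100a11 held 2 overlapping GC boxes at 64 and 59 bases, and the TATA motif of S100a4 lay at 31 bases. Of the promoters not shown, that of S100a13 also held a GC box, at 82 bases, and that of S100b held neither motif. Both strands were searched, and 30.5% of 33469 rat promoters of the same length held a GC box and 12.9% a TATA motif. The AP-1 motif (TGANTCA, in 6.34% of all promoters), the NF-kB motif (6.33%) and the CArG box (1.5%) had no match in any of the 5 promoters. These letters describe the windows and were not tested against the expression data.

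Values are MAS5 signals, a linear intensity per probe set. The arrays differed by replicate number more than by treatment: array medians ran from 136 to 181, and differences were therefore read within a replicate number as well as over the group. Of 15521 probe sets with a mean log2 signal in the upper 50% of the table (7.20 or more, a signal of about 147), 5 were S100 members. S100a1 and S100b lay below that limit and were not tested. Retinal ganglion cell markers were present, with Sncg (gamma-synuclein) between 15347 and 31594, and all 16 of that list passed the limit. Markers of other cells passed it too. They were 7 of 13 astrocyte and Müller glia genes (Vim, Clu, Dkk3 and Gja1 among them), 10 of 11 fibroblast and 7 of 11 pericyte and smooth muscle genes. So did 7 of 11 microglia and macrophage, 5 of 11 amacrine and bipolar cell, 2 of 9 endothelial and 2 of 8 oligodendrocyte and Schwann cell genes. The glial markers Gfap, Aqp4, Rlbp1, Slc1a2, Aldh1l1 and Pax2 and all 6 photoreceptor markers lay below the limit. In whole cultures, more cells of a type and more RNA per cell cannot be told apart.

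With the 3 endothelins S100a6 stood at 3.73 to 4.23 times, S100a4 at 1.84 to 2.35 times and S100a11 at 1.57 to 1.69 times its level in untreated cells. S100a13 was somewhat higher with ET-1 and ET-3, S100a10 was nearly level, and the 2 dim genes were not tested. S100a6 (calcyclin), which binds the ubiquitin ligase adaptor Cacybp, had signals of 12188, 4521 and 4608 in replicates 1, 2 and 3 with ET-1, 13617, 3157 and 4047 with ET-2, and 12419.9, 4165 and 3967 with ET-3, against 2429.6, 845 and 1636 in untreated cells. Every endothelin array lay above every untreated array, and in all 4 groups the replicate 1 array was the highest. On the log2 scale the difference from untreated was 2.08 with ET-1, 1.90 with ET-2 and 1.98 with ET-3 (3 pairs each). These are 4.23-fold, 3.73-fold and 3.94-fold. The SE of 0.18 comes from the limma fit to all 12 arrays, so it is the same for every comparison of a gene. It does not give the spread of the pairs, which with ET-1 differed by 2.33, 2.42 and 1.49 in replicates 1, 2 and 3.

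S100a11 (calgizzarin), which binds annexin A1 and takes part in growth control of human keratinocytes, read 8637, 7746 and 6732 with ET-1, 8768.5, 6253 and 6578 with ET-2, and 9228, 6824 and 6909.6 with ET-3, against 4779, 3752 and 5158 in untreated cells. All endothelin arrays lay above the untreated arrays, and the closest were ET-2 replicate 2 at 6253 and untreated replicate 3 at 5158. The log2 differences were 0.76, 0.65 and 0.74 for ET-1, ET-2 and ET-3 (3 pairs each, SE of the fit 0.10). These are 1.69-fold, 1.57-fold and 1.68-fold. The annotation holds S100a11l1, S100a11l2 and 5 S100a11 pseudogenes, and the probes' cross-reaction with them was not tested.

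S100a4 (metastasin), which binds the heavy chain of non-muscle myosin IIA, read 1657, 2161 and 1165 with ET-1, 1892, 1512 and 1091 with ET-2, and 2174, 1994 and 1502 with ET-3, against 695, 881 and 814 in untreated cells. All 9 endothelin arrays lay above the 3 untreated arrays, and the ET-2 array of replicate 3 was the lowest of them. The log2 differences were 1.02, 0.88 and 1.24 (3 pairs each, SE of the fit 0.16), or 2.03-fold, 1.84-fold and 2.35-fold. In mouse, S100a4 is also called fibroblast-specific protein 1.

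**Figure D1:**
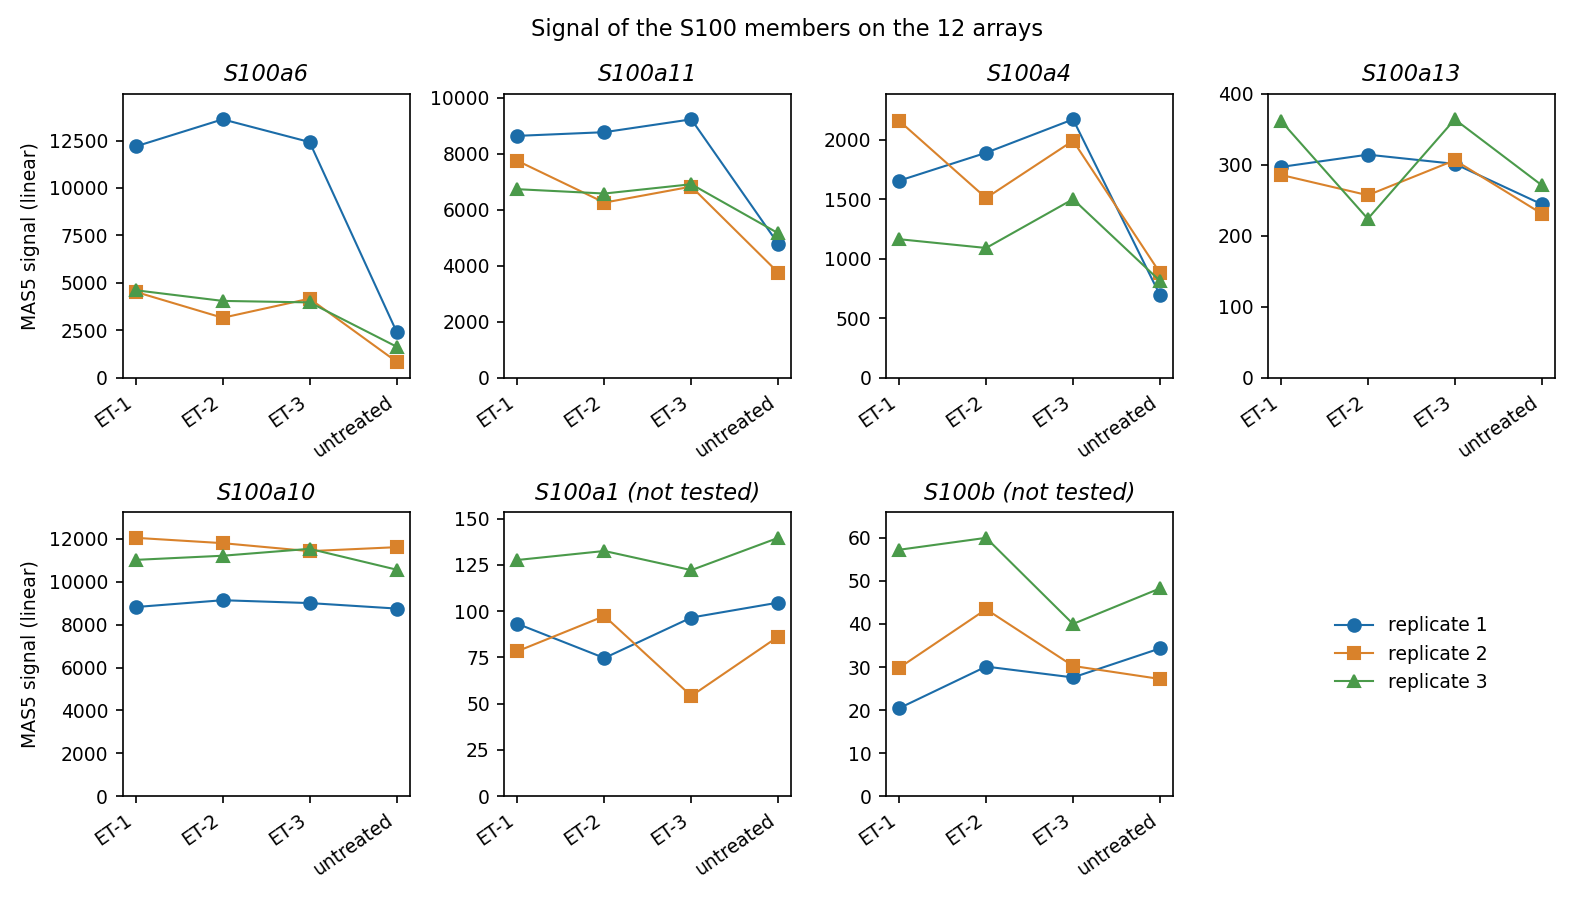
MAS5 signal (linear axis from 0) of the 7 S100 members in ET-1, ET-2, ET-3 and untreated arrays, 1 point per array and 1 line per replicate number. S100a6, S100a11 and S100a4 are above untreated in every endothelin array, with S100a6 at 12188 to 13617 in the endothelin arrays of replicate 1 and 2429.6 in its untreated array.

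S100a13, which takes part in the release of Fgf1 without a signal peptide, read 297, 286 and 362 with ET-1, 314, 257 and 224 with ET-2, and 301, 306 and 364 with ET-3, against 244, 231 and 271 in untreated cells. ET-1 and ET-3 did not overlap with untreated, whereas the ET-2 array of replicate 3 was below all 3 untreated arrays. The log2 differences were 0.33, 0.08 and 0.38 (3 pairs each, SE of the fit 0.15). That of ET-2 changed sign when arrays were centred on their medians and when replicate 1 or the ET-2 array of replicate 1 was left out.

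S100a10 read 8819, 12047 and 11019 with ET-1, 9137, 11799 and 11212 with ET-2, and 9004, 11426 and 11534 with ET-3, against 8749, 11611 and 10563 in untreated cells. The groups overlapped, and the log2 differences were 0.04, 0.06 and 0.05 (3 pairs each, SE of the fit 0.04). Their 95% intervals, from the same fit, were -0.06 to 0.14, -0.04 to 0.15 and -0.05 to 0.15. Centring the arrays on their medians turned the sign with ET-2 and ET-3, and quantile normalization turned it with ET-3, so no direction holds for S100a10. The annotation lists 1 S100a10 pseudogene.

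S100a1, a regulator of calcium cycling in heart muscle, read between 54.2 and 139.6 over the 12 arrays, and S100b, the glial member, between 20.4 and 60.0. The log2 differences from untreated were -0.15, -0.13 and -0.33 for S100a1 (SE 0.24) and -0.12, 0.27 and -0.14 for S100b (SE 0.38) with ET-1, ET-2 and ET-3. Both were below the limit for testing, and without detection calls these signals do not show whether the transcripts were present.

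Calls at an adjusted p of 0.05 in limma, with the replicate number as a block, set the scale for these differences. Of the 5 tested members, 3 (S100a6, S100a11 and S100a4) were called higher in each comparison, where 1.51% of all probe sets were called higher with ET-1, 1.28% with ET-2 and 2.13% with ET-3. Calls in either direction came to 1.73%, 1.6% and 2.64% of the 15521 probe sets. Groups did not overlap for 4 of 5 members with ET-1, 3 with ET-2 and 4 with ET-3, against 5.04%, 5.06% and 5.57% of all probe sets. The median of the 5 differences was 0.76, 0.65 and 0.74, against -0.03, -0.02 and -0.03 over all probe sets tested. The family was chosen from these same contrasts, so nothing is read from the calls, the separation of the groups or the median. Without the block no probe set was called with any endothelin (0 of 15521; 237, 223 and 297 had an unadjusted p under 0.05), members included.

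How the calls moved with the processing is likewise a description of the chosen genes and no sign of stability. S100a6 was called in 16 of 17 alternatives with each endothelin, the exception being the fit without the block. S100a4 was called in 14 with ET-1, 9 with ET-2 and 16 with ET-3, and S100a11 in 15, 11 and 15. With ET-1 both S100a4 and S100a11 lost their call when replicate 2 was left out, and S100a4 also without the ET-1 array of replicate 2. With ET-2 both lost it without the intensity trend, without replicate 1 or 2 and without the ET-2 array of replicate 1 or 3, and S100a4 also without the untreated array of replicate 2 and with only the 2 groups compared. With ET-3 S100a11 lost it without replicate 2. The differences of these 3 genes from untreated kept their sign in all 17 alternatives.

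Within replicate numbers the size of the difference varied. S100a6 was 5.02, 5.35 and 2.82 times its untreated array in replicates 1, 2 and 3 with ET-1, 5.60, 3.74 and 2.47 times with ET-2, and 5.11, 4.93 and 2.42 times with ET-3. Replicate 3 gave the smallest difference for S100a6, S100a11 and S100a4 in every endothelin group. Among all probe sets called higher, replicate 3 gave the smallest difference for 71.4% with ET-1, 54.8% with ET-2 and 68.3% with ET-3, and the 3 comparisons share the untreated arrays. S100a11 differed by 0.85, 1.05 and 0.38 on the log2 scale with ET-1 in replicates 1, 2 and 3, and S100a4 by 1.25, 1.29 and 0.52. S100a13 differed by 0.28, 0.31 and 0.42 with ET-1, 0.36, 0.15 and -0.28 with ET-2, and 0.30, 0.41 and 0.42 with ET-3, so replicate 3 was its smallest with ET-2 and its highest with ET-1 and ET-3.

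**Figure D2:**
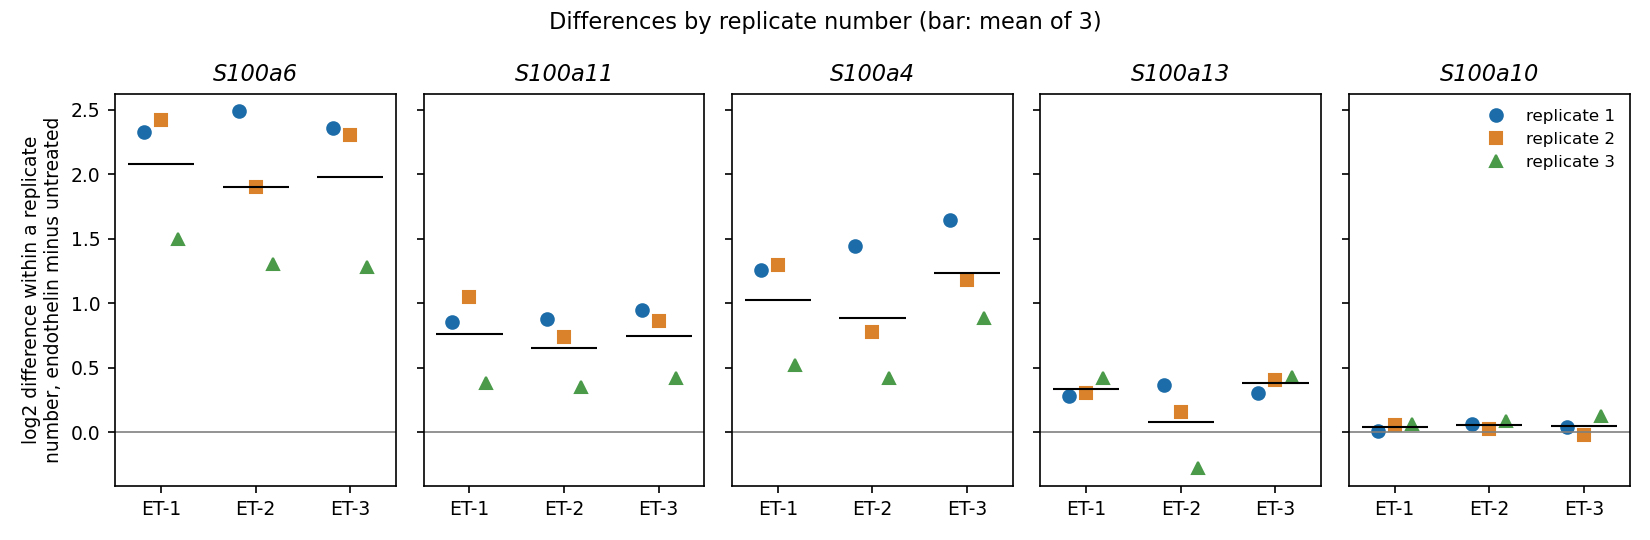
Log2 difference, endothelin minus untreated, within each replicate number, for the 5 tested members; symbols are replicates and the bar is their mean. The replicate 3 symbol is the lowest for S100a6, S100a11 and S100a4 with every endothelin, at 1.28 to 1.49 for S100a6.

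The replicates also differed in level, a contrast the choice of genes did not use and one examined after the data were seen. Over the 4 groups, S100a6 was higher in replicate 1 by 1.66 than in replicate 2 and by 1.34 than in replicate 3 on the log2 scale (limma F test on the block, adjusted p = 3.01e-06). S100a10 ran the other way, with replicate 1 at -0.39 against replicate 2 and -0.31 against replicate 3 (limma, adjusted p = 4.33e-06). S100a11 differed less (0.36 and 0.27, limma adjusted p = 0.0067), and S100a13 did not pass (limma adjusted p = 0.52). As a mean over the groups, S100a4 was lowest in replicate 3 (0.40 below replicate 1 and 0.47 below replicate 2, limma adjusted p = 0.0156). In untreated cells alone replicate 3 was not the lowest for S100a4 or S100a11. There S100a4 read 695, 881 and 814 in replicates 1, 2 and 3, and S100a11 4779, 3752 and 5158. For both genes the means also hold the smaller endothelin differences of replicate 3, so they are not a level apart from treatment. With 72.9% of all probe sets called by this test, 4 of 5 members is near the background.

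Cell type markers also differed between replicate numbers. The summed signal of 11 fibroblast genes, 10 of them above the limit, was 63136 to 69325 on the arrays of replicate 1, 14564 to 18159.7 in replicate 2 and 10262 to 12168 in replicate 3, treated and untreated alike. S100a6 was also highest in replicate 1. From replicate 2 to 3 the fibroblast sum fell in every group, while S100a6 rose in untreated cells (845 to 1636), with ET-1 and with ET-2. With ET-3 both fell. S100a4 was lowest in replicate 1 in untreated cells, at 695, between the others with ET-1 and highest with ET-2 and ET-3. The summed signal of 16 retinal ganglion cell markers ran opposite to the fibroblast sum, at 95042 to 99252 in replicate 1, 113791 to 125336 in replicate 2 and 137176 to 149579 in replicate 3. Between groups the ranges of the fibroblast sum overlapped, but they span the replicate numbers and so cannot show a smaller difference by treatment. In replicates 1, 2 and 3 the sum was 65829, 17969 and 12168 with ET-1, against 65477, 17238 and 10631 in untreated cells. With ET-2 it was 69325, 14564 and 10262, and with ET-3 63136, 18159.7 and 10618. ET-1 was thus above untreated in each replicate number, ET-2 only in replicate 1 and ET-3 only in replicate 2. In replicates 2 and 3 S100a6 was 2.42 to 5.35 times its untreated array, and without replicate 1 its log2 difference was 1.96, 1.60 and 1.79 for ET-1, ET-2 and ET-3. Whether fibroblasts take part in the S100a6 difference was not tested.

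The summed signal of 11 pericyte and smooth muscle markers was 7964 to 11370.3 with ET-1, 7913 to 9543 with ET-2 and 9268 to 10870.3 with ET-3. Each endothelin group lay above untreated cells, at 4544 to 7165, and the endothelin groups overlapped each other. Of single probe sets, 5.04%, 5.06% and 5.57% did not overlap with untreated for ET-1, ET-2 and ET-3. Tagln (transgelin) was the largest part of the summed signal, at 2708 of 4544 on the untreated array of replicate 1 and 8217 of 11370.3 on the ET-1 array of replicate 2. Of 7 tested, Acta2 (smooth muscle actin), Tagln and Cnn1 (calponin) were called higher in all 3 comparisons and Pdgfrb with ET-3, with none lower. Over all probe sets 1.51%, 1.28% and 2.13% were called higher with ET-1, ET-2 and ET-3. Notch3, Myh11 and Abcc9 were not called, and Abcc9 differed by -0.30, -0.04 and -0.32. Rgs5, Cspg4, Kcnj8 and Des lay below the limit. The summed signal of 13 astrocyte and Müller glia markers was 35196 to 41064 with ET-1, 32114 to 41620.0 with ET-2 and 35275 to 43963 with ET-3, against 27985 to 34325 in untreated cells. Of that list, Vim and Gja1 were called higher in all 3 comparisons and Clu with ET-1 and ET-3; of the fibroblast list, Fn1 was called higher with ET-1 and ET-3, Ogn was called lower in all 3 and Col3a1 lower with ET-2; of the retinal ganglion cell list, Eomes was called lower with ET-1 (-0.39), and of 2 tested endothelial genes Kdr was called lower with ET-2 (-0.74). The part of these cells in the S100 differences was not tested.

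**Figure D3:**
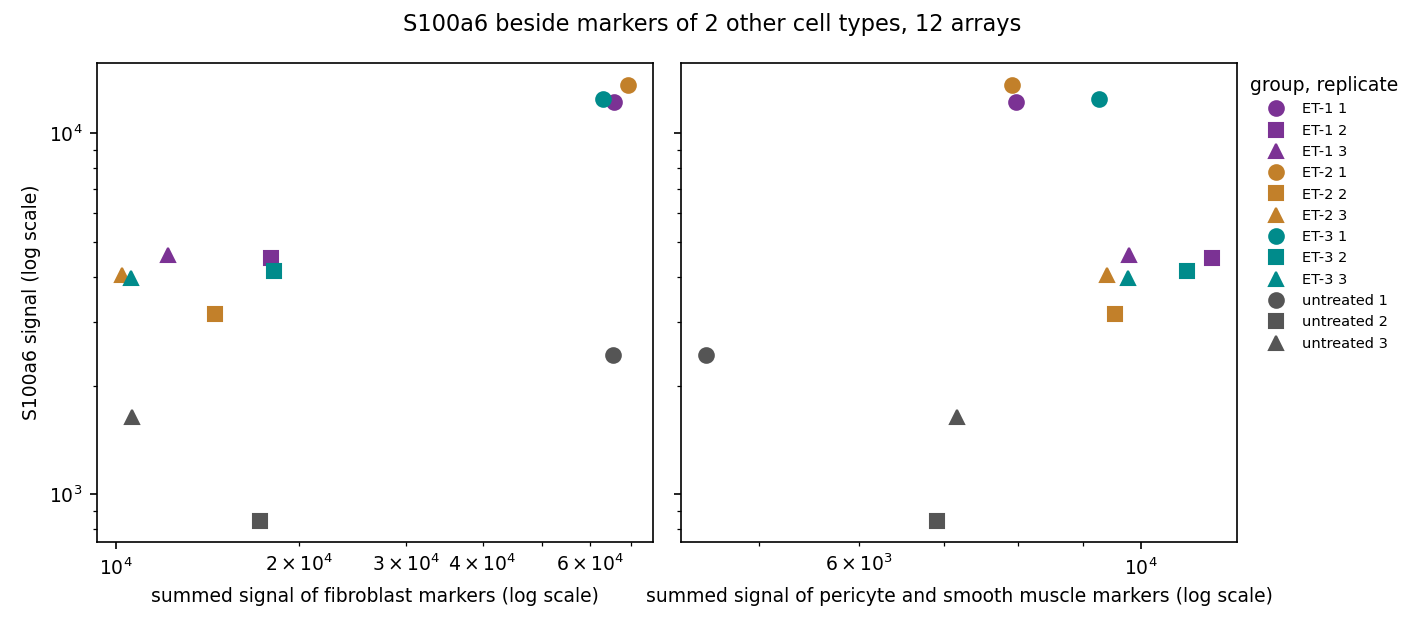
S100a6 signal against the summed signal of fibroblast markers (left) and of pericyte and smooth muscle markers (right), log axes, 1 point per array, colour for group and symbol for replicate. Replicate 1 arrays stand apart at fibroblast sums of 63136 to 69325, and endothelin arrays lie above untreated arrays of the same replicate on both panels.

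Between endothelins, the dose and time were the same, and all 15 differences (3 pairs over 5 members) were tested. No probe set in the table was called in any pair (limma, 0 of 15521; 574, 347 and 583 had an unadjusted p under 0.05 for ET-2 against ET-1, ET-3 against ET-1 and ET-3 against ET-2). For S100a6 the log2 difference was -0.18 for ET-2 against ET-1 (95% interval -0.58 to 0.21), -0.10 for ET-3 against ET-1 (-0.50 to 0.29) and 0.08 for ET-3 against ET-2 (-0.32 to 0.48). The intervals give the sizes that remain possible and do not show that the peptides act alike. For S100a11 the differences were -0.11 (-0.33 to 0.11), -0.02 (-0.24 to 0.20) and 0.09 (-0.13 to 0.31). S100a4 was higher with ET-3 than with ET-2 by 0.35 (0.01 to 0.70), in 3 of 3 replicates, but it failed the correction (limma adjusted p = 0.9989). The adjusted p in limma was 0.9997 for all members in ET-2 against ET-1 and 0.9996 in ET-3 against ET-1.

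**Figure D4:**
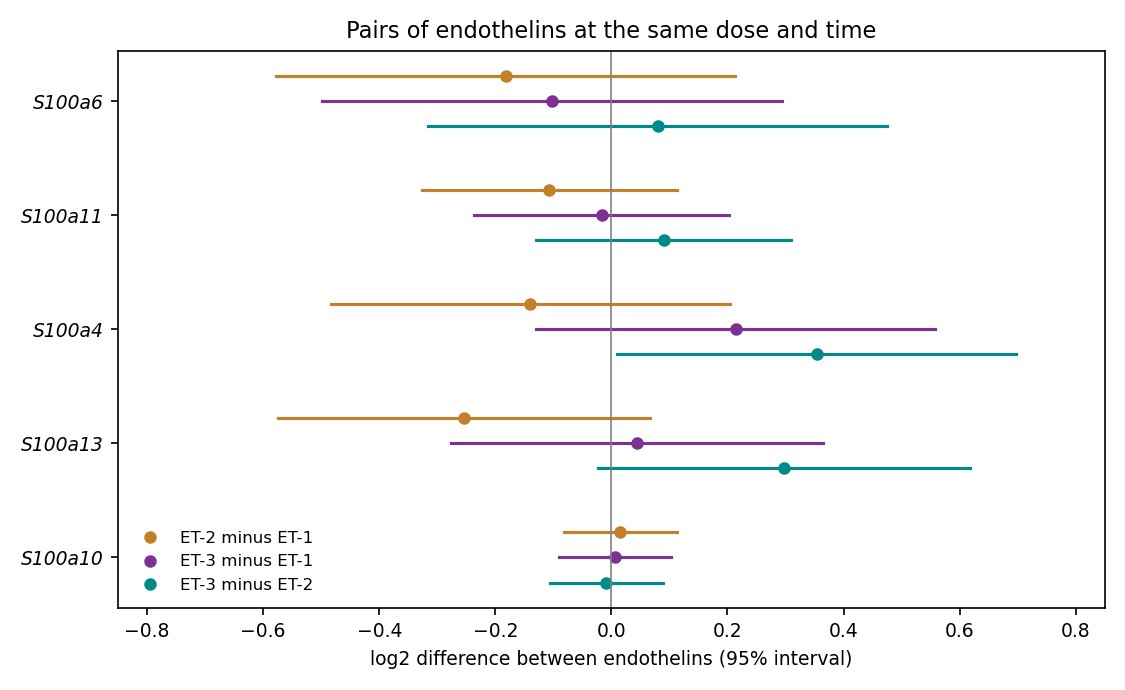
Log2 difference between pairs of endothelins for the 5 tested members, point with 95% interval. 14 of the 15 intervals include 0, and the exception is S100a4 in ET-3 minus ET-2, 0.35 (0.01 to 0.70).

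The other S100 genes measured were S100a3, S100a5, S100a7l2, S100a8, S100a9, S100a14, S100a16, S100g and S100vp, 9 genes by 10 probe sets. S100a16 passed the limit alone and read 670.4, 316 and 232 with ET-1, 662, 209 and 265 with ET-2, and 674, 221 and 112 with ET-3, against 472, 108 and 147 in untreated cells. Its log2 differences of 0.91, 0.77 and 0.38 (SE 0.25) did not pass in limma (adjusted p = 0.0967, 0.159 and 0.444), and its groups overlapped. Of the others, S100a3 read 113 to 212 and the remainder 0.485 to 79.4.

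In the GRCr8 annotation S100a1, S100a13, S100a14, S100a16, S100a3, S100a4, S100a5 and S100a6 follow each other on chromosome 2 with no other coding gene between neighbours, and S100a11 and S100a10 are neighbours farther along. Of the neighbours S100a11 and S100a10, the log2 differences from untreated were 0.65 to 0.76 for S100a11 and 0.04 to 0.06 for S100a10; the difference between the genes was not tested. S100b lies on chromosome 20 and S100g on chromosome X.

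**Figure D5:**
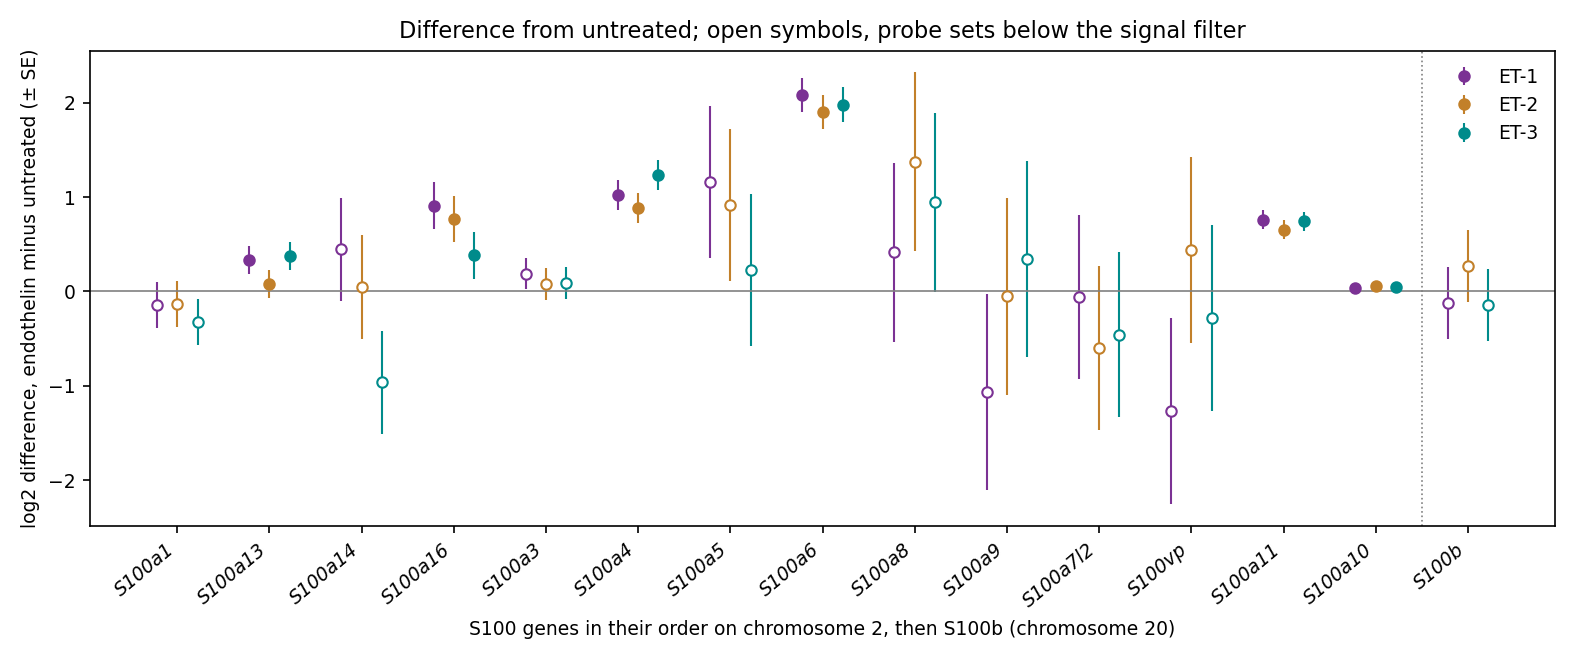
Log2 difference from untreated for ET-1, ET-2 and ET-3 over the S100 genes in their order on chromosome 2, then S100b. The ± SE is that of the fit to all 12 arrays, with 3 pairs per comparison. Filled symbols passed the signal limit and open ones did not. S100a14 is drawn from its brighter probe set only, at 0.45, 0.05 and -0.96 with ET-1, ET-2 and ET-3. Its other probe set, not drawn, stood at -0.53, 0.98 and 0.74. The neighbours S100a11 and S100a10 stand at 0.65 to 0.76 and 0.04 to 0.06.

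Likeness of pattern is given as a description over the 12 arrays, which share replicate numbers and treatments. With each replicate's mean subtracted, Pearson's r was 0.985 between S100a6 and S100a11, 0.970 between S100a4 and S100a11 and 0.950 between S100a4 and S100a6. As measured it was 0.957, 0.841 and 0.732. Pairs with S100a10 or S100a13 gave 0.31 to 0.67 with the subtraction and -0.54 to 0.57 as measured. S100a6, S100a11 and S100a4 were called higher with every endothelin on these same arrays, so the difference from untreated itself enters their r. After the subtraction, the genes most like S100a6 over all tested, named genes were Axl (0.997), Esm1 (0.991) and Myl12a (0.991). Those most like S100a11 were Sphk1 (0.993), Fxyd5 (0.988) and Runx1 (0.987), and those most like S100a4 were Rras (0.990), Tmbim1 (0.987) and Klf5 (0.978). As measured, S100a6 was most like Esm1 (0.992), Axl (0.981) and Iqgap1 (0.975).

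Proteins that S100 members bind, and genes related to them, were looked up in lists chosen with earlier results of these data known. Their calls are therefore a description, as for the members, and no separate support. Over 6 lists 90 genes were tested. They include 37 other EF-hand proteins, 9 plasminogen system genes and 1 other S100 gene, which were not listed as binding partners. Of the 90, 13 were called higher with ET-1, 10 with ET-2 and 14 with ET-3, and none lower. Over all probe sets 1.51%, 1.28% and 2.13% were called higher. Without the block none of the 90 was called. Annexins, calcium-dependent membrane binders, gave 2, 1 and 2 of 8. Anxa1, the partner of S100a11, was called with every endothelin. It was higher by 0.78, 0.77 and 0.78 on the log2 scale with ET-1, ET-2 and ET-3. Anxa3 was called with ET-1 (0.43) and ET-3 (0.53) and differed by 0.32 with ET-2. Anxa2, the partner of S100a10, differed by 0.11, 0.09 and 0.10 and did not pass in limma (adjusted p = 0.44, 0.567 and 0.447).

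Of 27 intracellular partners 6 were called higher in each comparison. Myof (myoferlin), a membrane repair protein, was higher by 1.14, 1.09 and 1.22 with ET-1, ET-2 and ET-3 and had the largest moderated t among them. Myh9, the non-muscle myosin IIA heavy chain that S100a4 binds, was higher by 0.68, 0.43 and 0.58. The tropomyosins Tpm1 (0.42, 0.38 and 0.43) and Tpm2 (0.75, 0.64 and 0.79) and the scaffold Iqgap1 (0.76, 0.58 and 0.75) were called as well; the sixth was Tpm4, named after its values were seen. Cacybp, which S100a6 binds, differed by 0.07, 0.27 and 0.12 and did not pass in limma (adjusted p = 0.758, 0.169 and 0.526). The median of the 27 intracellular partners was 0.06, 0.04 and 0.07.

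Of 8 tested receptors and surface partners, 3, 1 and 3 were called higher. Itgb1 (integrin beta-1) was called with every endothelin (0.47, 0.39 and 0.43), and Mcam (0.67 and 0.54) and Sdc4 (syndecan-4, 1.31 and 1.27) with ET-1 and ET-3; with ET-2 they differed by 0.35 and 1.15. Ager, the receptor that several S100 proteins bind, lay below the limit, as did Tlr4. Of 9 plasminogen system genes, chosen because S100a10 with annexin A2 binds plasminogen on the cell surface, 2, 2 and 3 were called higher: Plau (urokinase; 1.05, 1.02 and 1.01), Serpine2 (0.87, 0.75 and 0.76) and, with ET-3, Mmp9 (0.62). Of 37 other EF-hand proteins none was called in limma (5, 9 and 9 had an unadjusted p under 0.05 with ET-1, ET-2 and ET-3), and the largest moderated t was in Calu (calumenin; 0.34, 0.26 and 0.32) and Hpcal1 (-0.16, -0.24 and -0.14).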

How the data were processed

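Expression was measured on 12 Affymetrix Rat Genome 230 2.0 arrays, 3 per group. The deposited values are 1 intensity per probe set and array; per the submitters' processing notes the authors used MAS5, and no version or setting is stated in the sources used here. The authors' intensities have a mean of 496.7 to 498.3 after trimming 2% at each end, so they appear scaled to a common value, which leaves each array's median free to differ (136 to 181). Of 31042 probe sets, 20826 had 1 symbol in the platform annotation, 436 several and 9780 none; only those with 1 were named. Log2 intensities, with no further normalization, were fitted in limma 3.58.1 (R 4.3.3): lmFit with group and replicate number, contrasts.fit, eBayes with an intensity trend, two-sided p-values adjusted by Benjamini-Hochberg over the 15521 probe sets at or above the median mean log2 intensity, threshold 0.05. A gene of a list was represented by its probe set with the highest mean.

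All 18 pairs of arrays with the same number deviated together from their group means (r 0.684 to 0.912, and -0.758 to -0.056 otherwise), so the replicate number was treated as pairing them; this rests on the values, as the labels do not say what a number marks. The block is in the design because the comparison was set by replicate number. It cut the median residual SD to 0.127, against 0.25 without it (6 and 8 residual degrees of freedom).

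The members and lists were chosen with earlier results of these data known. Genes named were all S100 genes measured and, from each list, up to 5 called genes with the largest moderated t, or the 2 largest where none was called. Anxa2, Tpm4, Cacybp, Ager, Tlr4 and the cell type markers were named outside this rule, after their values were seen. The replicate test was added after the data were seen. Detection calls and protein sequences were not used here. The number of arrays limits the precision.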

Additional observations from a re-analysis of the deposited data

How the results depend on the processing

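Alternatives changed 1 choice at a time. Over all probe sets with ET-1, 268 calls became 0 without the replicate block, 123 without the intensity trend and 78 with only the 2 groups compared. With ET-2, 249 became 0, 71 and 56, and 135 without the filter, 159 with the upper quartile and 1218 with median centring. With ET-3, 410 became 0, 170 and 56, and 273 without the filter. Of the other S100 genes and partner lists, 13 calls with ET-1 became 0 without the block, 5 without the trend, 6 with 2 groups and 8 with median centring; 10 with ET-2 became 0, 1 and 3, and 3 without the filter; 14 with ET-3 became 0, 5 and 3. The 3 members called became 0 without the block with each endothelin and 1 without the trend with ET-2. Leaving out a replicate or an array gave 23 to 575, 27 to 404 and 43 to 685 probe sets for ET-1, ET-2 and ET-3, 1 to 17, 1 to 14 and 1 to 16 list genes, and 1 to 3, 1 to 3 and 2 to 3 members; the lowest values with ET-1 and ET-3 came without replicate 2, the 27 without the ET-2 array of replicate 1 and the highest probe set counts without the untreated array of replicate 3. ET-2 against ET-1 gave 0 to 1. Fewer arrays also leave fewer degrees of freedom, and the causes of these changes were not tested. Median centring moves each array by its median, and the medians with ET-2 lay 0.00, 0.14 and 0.15 above untreated in replicates 1, 2 and 3. The differences of S100a6, S100a11 and S100a4 from untreated kept their sign in all 17 alternatives. Detection above background was not available as a value, so dim genes such as S100b are limited by signal.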
